A study of Mus musculus with 13 samples.

Results

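The levels of 8 genes for transcription factors that mark the position of a limb or trunk segment in the embryo were followed across 3 muscles of *mdm* mice, the genes being *Tbx2*, *Tbx3*, *Tbx4*, *Tbx5*, *Pitx1*, *Zic1*, *Lbx1* and *Meox2*. They were chosen by name with the differences between these muscles already known, so their own levels and differences are given as a description, and the calls counted for them support nothing. The lists of related genes and markers were also chosen with earlier results of these data known. Their calls, adjusted p-values and medians are therefore a description too. Of the 8 genes, 7 were analysed among the 17924 genes of the tables, all 7 passed the filter on low counts that left 17069 genes, and *Tbx5* was not analysed here. The study sequenced RNA of whole muscles from *mdm* and wild-type mice, and wild-type samples were not used here. All 13 libraries used carry the *mdm* genotype, a recessive mutation of the titin gene *Ttn* that removes part of the N2A-PEVK region, in the colony B6C3Fe a/a-Ttn mdm/J. There were 5 libraries of the extensor digitorum longus (EDL, in the front of the lower leg) from mice aged 38 to 42 days, 5 of the psoas (between lumbar spine and hip) at 29 to 42 days and 3 of the soleus (in the calf) at 33 to 38 days. Over both genotypes the study used fewer mice than libraries, and the ages it gives mean that some *mdm* libraries share a mouse. The labels do not say which ones, so the main fit treated libraries as independent. Its p-values measure the spread between these samples only. Total counts ran from 12059090 to 48835209 in *mdm* EDL, from 16315975 to 30009501 in *mdm* psoas and from 9114176 to 39484945 in *mdm* soleus. By the RNA integrity numbers that the study lists, no psoas library exceeded any EDL library. The part of RNA integrity in the differences between muscles was not tested. The slow fibre gene *Myh7* lay between 98825 and 182496 normalized counts in the soleus libraries and at 20950.4 or lower in the others, and the fast fibre gene *Myh4* was highest in the EDL libraries, so these markers did not go against the muscle labels.

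Vertebrate limbs and body segments are laid out early in development by transcription factors that switch on in particular places, and some of these genes stay active in adult connective tissue and muscle. *Pitx1* and *Tbx4* are the factors by which a hindlimb is told from a forelimb, while *Tbx5* is their counterpart in the forelimb. *Tbx2* and *Tbx3* are closely related T-box repressors that help set the front and back margins of the limb bud. *Zic1* codes for a zinc finger protein of the dorsal neural tube and dorsal somite. *Lbx1* is switched on in muscle precursors that migrate from the somites into the limbs, and *Meox2* is a homeobox gene of somites and limb muscle that also restrains the growth of vessel cells.

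Positions of the analysed genes are those of GRCm38 as annotated by GENCODE mouse release M21. *Tbx2* (ENSMUSG00000000093, chr11:85832551-85841948) and *Tbx4* (ENSMUSG00000000094, chr11:85886422-85916097) are neighbours on the forward strand, with starts 53.871 kb apart. *Tbx3* (ENSMUSG00000018604) is at chr5:119670669-119684724, *Pitx1* (ENSMUSG00000021506) at chr13:55825051-55836192, *Zic1* (ENSMUSG00000032368) at chr9:91358058-91365810, *Lbx1* (ENSMUSG00000025216) at chr19:45232684-45235812 and *Meox2* (ENSMUSG00000036144) at chr12:37108540-37179534. *Tbx3*, *Pitx1* and *Zic1* each overlap a gene on the opposite strand, namely *Tbx3os1*, *Gm47071* and *Zic4*. The library kit keeps the strand, but whether the counting used it was not given in the sources used here, so reads of these partners cannot be told apart from their own. On their own strand, *Pitx1* also overlaps *Gm28760* and *Meox2* overlaps *Gm48617*, which strand alone cannot separate.

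The stretches of DNA before 2 of the starts are shown because *Zic1* and *Tbx4* had the levels that were ordered in opposite ways in the muscles. They come from RefSeq (GRCm38.p6) and are written 5′ to 3′ on the strand of the gene. That of *Zic1* is chr9:91365811-91366018 on the reverse strand, the 208 bases outside exons, and that of *Tbx4* is chr11:85896515-85896764 on the forward strand, before an internal start that lies within an intron of the longer transcripts.
Zic1: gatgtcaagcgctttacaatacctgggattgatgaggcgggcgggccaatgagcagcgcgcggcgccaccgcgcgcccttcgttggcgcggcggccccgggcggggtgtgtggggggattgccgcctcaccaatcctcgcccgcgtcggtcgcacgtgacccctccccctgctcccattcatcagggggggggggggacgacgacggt
Tbx4: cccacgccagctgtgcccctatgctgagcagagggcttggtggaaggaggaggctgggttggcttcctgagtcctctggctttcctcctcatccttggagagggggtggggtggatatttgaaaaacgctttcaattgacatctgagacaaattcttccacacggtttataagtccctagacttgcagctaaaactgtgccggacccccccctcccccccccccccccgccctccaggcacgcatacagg
No base is in capitals because none of the 3 motifs searched on both strands was found in them. These were the T-box half-site AGGTGTGA, held by 1.12% of 32851 mouse promoter windows of 250 bases, the Pitx motif TAATCC, held by 6.25%, and the homeodomain motif TAATTA, held by 4.84%. The *Meox2* window (chr12:37108290-37108539, forward strand) did not hold them either. The *Zic1* stretch of 208 bases had 71.2% G and C, and its observed number of CpG pairs was 0.992 of that expected from its bases. Over the full *Zic1* window of 250 bases, exon bases included, the values were 66.0% and 0.995. In the *Tbx4* window the values were 58.4% and 0.285, beside medians of 52.4% and 0.373 over all windows.

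*Zic1* was the member with the widest differences between muscles. Its normalized counts, which are counts divided by a size factor for each library, were 49.0, 59.3, 59.7, 68.6 and 31.1 in *mdm* EDL replicates 1 to 5. They were 5.59, 2.14, 0.916, 5.21 and 6.63 in *mdm* psoas and 7.03, 2.14 and 3.44 in *mdm* soleus. Every EDL library was above every psoas and soleus library, and psoas and soleus overlapped. Psoas against EDL gave a fitted log2 fold change of -3.67 (SE 0.477, 95% interval -4.69 to -2.66), a 12.8-fold lower level. Soleus against EDL gave -3.55 (SE 0.589, 95% interval -4.81 to -2.29), 11.7-fold lower. In bulk samples, fewer cells of a type and less RNA per cell cannot be told apart, which holds for this difference and all that follow.

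The low *Zic1* values rest on few reads. All psoas and soleus values were below the filter limit of 10 normalized counts, so *Zic1* passed it through its EDL libraries alone. The 5 psoas libraries together held 31 counts, a summed rate of 4.15 normalized counts with an exact Poisson 95% interval of 2.82 to 5.89, and the 3 soleus libraries held 22 counts, with an interval of 3.13 to 7.57. In the EDL libraries 324 counts gave 53.3 (47.7 to 59.5), and these intervals cover counting error only. The soleus and psoas levels were not distinguishable at this depth, with a log2 fold change of 0.12 and an interval from -1.08 to 1.33.

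The T-box gene *Tbx3* was ordered the other way, with EDL lowest. Its normalized counts were 41.3, 38.9, 47.8, 21.8 and 16.2 in EDL, 244, 60.3, 114, 102 and 86.2 in psoas and 123, 134 and 70.5 in soleus. All psoas and soleus libraries exceeded all EDL libraries, and psoas replicate 1 was far above the other psoas libraries. Psoas was 3.65-fold above EDL (log2 1.87, SE 0.397, 95% interval 1.02 to 2.72), and without psoas replicate 1 the log2 value was 1.44. Soleus was 3.31-fold above EDL (log2 1.73, SE 0.437, 95% interval 0.79 to 2.66). Between soleus and psoas the log2 fold change was -0.14 (95% interval -1.07 to 0.79).

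*Tbx4*, the hindlimb T-box factor, had its highest levels in psoas. The normalized counts were 7.66, 18.5, 17.9, 9.80 and 1.35 in EDL, 37.3, 27.2, 60.5, 40.8 and 32.3 in psoas and 29.4, 33.6 and 13.8 in soleus. Psoas and EDL did not overlap, whereas soleus replicate 3 fell among the EDL libraries. The lowest EDL value rested on 1 count, and the EDL libraries held 66 counts together. Psoas was 3.57-fold above EDL (log2 1.83, SE 0.486, 95% interval 0.80 to 2.87), soleus 2.37-fold (log2 1.24, SE 0.540, 95% interval 0.09 to 2.40). Against psoas, soleus gave -0.59 (95% interval -1.73 to 0.55).

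*Tbx2*, next to *Tbx4* on the chromosome, had means in the same order of muscles with smaller differences. Its normalized counts were 30.7, 28.7, 11.9, 31.6 and 21.6 in EDL, 61.0, 36.8, 32.1, 32.1 and 25.7 in psoas and 26.1, 29.3 and 32.7 in soleus. The 3 muscles overlapped, and psoas replicate 1 again held the highest value. The log2 fold changes were 0.57 (95% interval -0.11 to 1.25) for psoas against EDL, 0.21 (SE 0.371) for soleus against EDL and -0.36 (-1.16 to 0.43) for soleus against psoas.

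*Pitx1*, which acts upstream of *Tbx4* in the hindlimb bud, was close to the limit of detection. The normalized counts were 4.68, 1.91, 1.99, 17.4 and 6.76 in EDL, 15.4, 2.67, 6.41, 6.08 and 13.3 in psoas and 12.8, 11.4 and 18.9 in soleus, from 1 to 33 counts per library. The soleus libraries stood high, but EDL replicate 4 and psoas replicates 1 and 5 reached into their range. The 95% interval held 0 in each contrast, with log2 fold changes of 0.44 (SE 0.612), 1.12 (SE 0.686) and 0.68 (SE 0.665) for psoas against EDL, soleus against EDL and soleus against psoas. The 2 factors that define a hindlimb were thus detected in all 3 muscles at low counts, and neither had a higher mean in both lower leg muscles than in the psoas.

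*Lbx1* and *Meox2*, the 2 homeobox genes of muscle precursors, were the most abundant members, and none of their log2 fold changes exceeded 1 in size. *Lbx1* had normalized counts of 97.9, 160.1, 163, 107 and 141 in EDL, 63.8, 73.2, 107, 87.7 and 72.9 in psoas and 113, 108 and 77.4 in soleus. EDL was highest on average, although its lowest libraries overlapped with both other muscles. Psoas against EDL gave a log2 fold change of -0.73 (SE 0.225, 95% interval -1.21 to -0.25), soleus against EDL -0.41 (-0.97 to 0.15) and soleus against psoas 0.32 (-0.23 to 0.86).

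*Meox2* had 309, 292, 215, 480.3 and 222 normalized counts in EDL, 216, 210.4, 182, 245 and 231 in psoas and 359, 356 and 318 in soleus. All soleus libraries lay above all psoas libraries, while EDL spanned both, with replicate 4 highest. The log2 fold change of soleus against psoas was 0.68 (SE 0.229, 95% interval 0.19 to 1.17), that of psoas against EDL -0.48 (-0.92 to -0.05) and that of soleus against EDL 0.19 (-0.30 to 0.69).

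**Figure D1:**
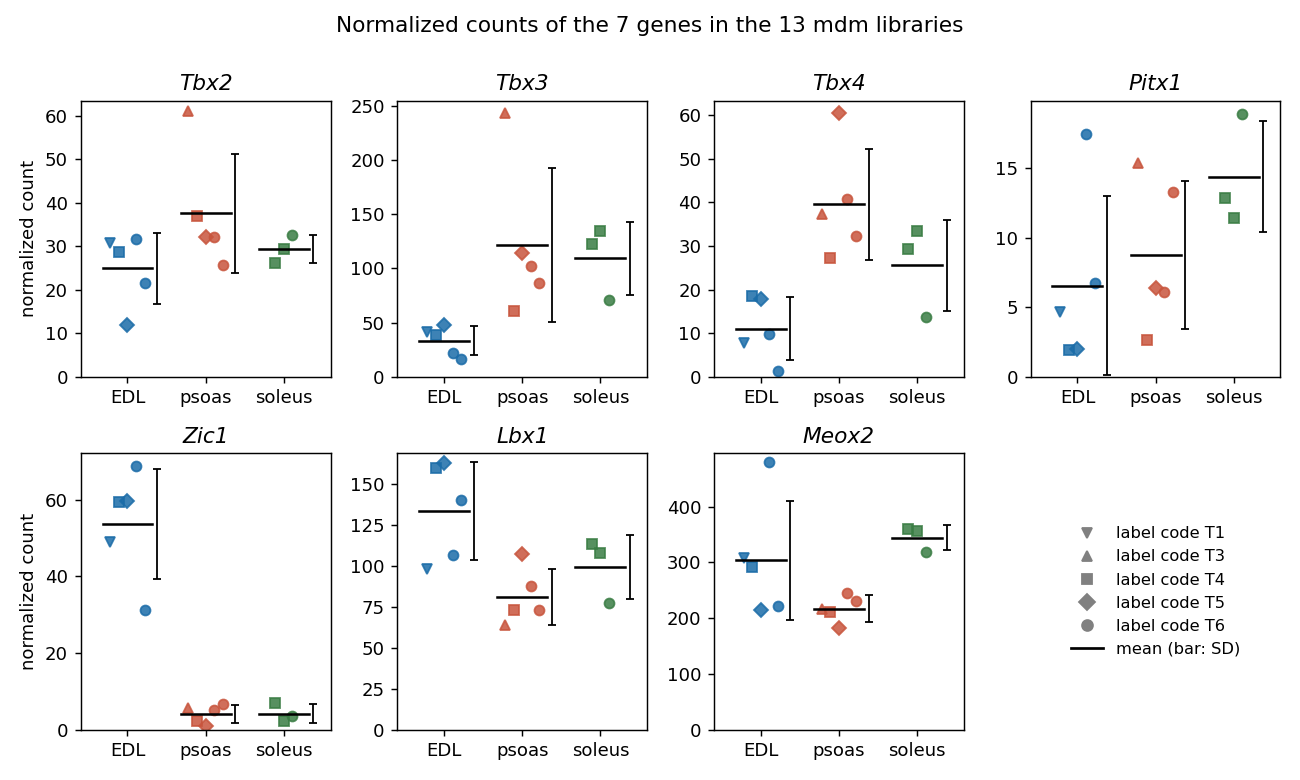
Normalized counts (linear axes from 0) of the 7 genes in each library, by muscle, with marker shapes for the condition code of the labels, a line at the mean and a bar of 1 SD beside it. The EDL libraries are highest for *Zic1* and lowest for *Tbx3*, and *Pitx1* and *Tbx2* overlap across muscles.

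A gene was called different between muscles when its Benjamini-Hochberg adjusted p over all 17069 genes in edgeR's quasi-likelihood test was below 0.01 and its log2 fold change exceeded 1 in either direction. In psoas against EDL 2 of the 7 members met this, *Tbx3* higher and *Zic1* lower, beside 4.93% of all genes (841). In soleus against EDL it was 1 of 7, *Zic1*, beside 0.978% of all genes. In soleus against psoas it was 0 of 7, beside 0.0762%, with 1 member at an unadjusted p under 0.05 in edgeR and 0 called by DESeq2. The members were selected on these contrasts, so nothing is read from these shares. By ranges alone, 2 members (*Tbx3* and *Tbx4*) were higher in psoas than in EDL without overlap, beside 6.48% of all genes, and 1 (*Zic1*) was lower, beside 6.56%. In soleus against EDL 1 member (*Tbx3*) was higher without overlap, beside 5.33%, and 1 (*Zic1*) lower, beside 5.72%. In soleus against psoas 1 (*Meox2*) was higher without overlap, beside 4.97%. With replicate numbers as a block, which are not known to mark the same mouse, 1267 genes in place of 841 were called between psoas and EDL, and the same 2 members. DESeq2 called 3 members between psoas and EDL, *Tbx4* besides these 2, and 2 between soleus and EDL, *Tbx3* besides *Zic1*.

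These calls, again as a description, depended on the libraries to different degrees. *Zic1* in psoas against EDL was called whichever of the 13 libraries was left out, with log2 fold changes from -3.88 to -3.44. *Zic1* in soleus against EDL was called on leaving out 8 of the 13 in turn. It was not called on leaving out EDL replicate 2, EDL replicate 3 or each of the soleus libraries, where log2 fold changes lay between -4.29 and -3.21. It was also not called with the condition code as a block (log2 -3.57). *Tbx3* in psoas against EDL was called on leaving out 4 of the 13 in turn. It was not called on leaving out each of the EDL libraries, psoas replicates 1, 3 or 4, or soleus replicate 1, with log2 fold changes between 1.44 and 2.01, nor when the 2 muscles were fitted alone (1.88). The directions of all 7 members against EDL were the same in every alternative.

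**Figure D2:**
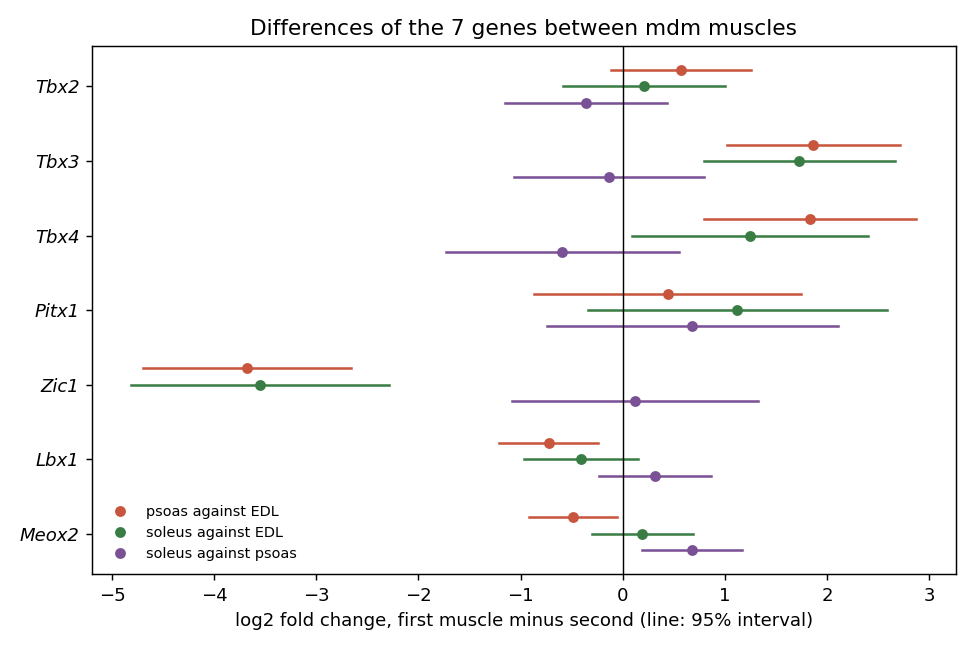
Fitted log2 fold changes (points) of the 7 genes with 95% intervals (lines) in 3 contrasts, each the first muscle minus the second. Both contrasts against EDL are near -3.6 for *Zic1* and above 0 for *Tbx3* and *Tbx4*, and the interval of soleus against psoas holds 0 for these 3 genes.

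The labels give each library a condition code from T1 to T6 whose meaning was not given, and 3 codes hold both EDL and psoas libraries. Within codes T4, T5 and T6, *Zic1* differed between psoas and EDL by -4.11, -4.71 and -2.69 in log2 CPM, *Tbx3* by 0.58, 1.23 and 2.25, and *Tbx4* by 0.49, 1.67 and 2.76. The directions matched the pooled ones in each code, with sizes that varied from code to code. Within codes T4 and T6, soleus against EDL gave -3.48 and -3.27 for *Zic1*, 1.67 and 1.84 for *Tbx3* and 0.70 and 1.45 for *Tbx4*. For *Pitx1* the psoas differences changed sign between codes (0.27, 1.19 and -0.23). The *Lbx1* differences were -1.15, -0.61 and -0.60, all below 0.

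Levels of different genes were compared per kb of exon, as normalized counts per kb. *Meox2* (129 in EDL, 91.9 in psoas and 146 in soleus, means) and *Lbx1* (53.8, 32.6 and 40.1) came first and second in every muscle. Over all 13 libraries their means stood at the 73.8th and 49.8th percentile of the 13924 protein-coding genes tested. The other 5 members were between the 6.93rd percentile (*Pitx1*) and the 23.7th (*Tbx3*). In EDL the order below *Lbx1* was *Zic1* (9.41), *Tbx2* (6.87), *Tbx3* (5.01), *Tbx4* (3.25) and *Pitx1* (2.47), and each overlapped in its libraries with the next. In psoas it was *Tbx3* (18.3), *Tbx4* (11.6), *Tbx2* (10.4), *Pitx1* (3.30) and *Zic1* (0.720), and in soleus *Tbx3* (16.5), *Tbx2* (8.09), *Tbx4* (7.52), *Pitx1* (5.42) and *Zic1* (0.739). Neighbours in these orders overlapped except *Tbx2* and *Pitx1* in psoas, and *Tbx3* and *Tbx2* as well as *Pitx1* and *Zic1* in soleus.

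Ratios of 2 genes in 1 library do not depend on how libraries are scaled. Per kb, *Zic1* exceeded *Tbx4* in 5 of 5 EDL libraries, by a ratio of 1.92 to 13.7. *Tbx4* exceeded *Zic1* in 5 of 5 psoas libraries, by 8.16 to 110.5, and in 3 of 3 soleus libraries, by 6.70 to 26.2. The highest EDL ratio (13.7) rests on 1 count of *Tbx4*, and the highest psoas ratio (110.5) on 1 count of *Zic1*. For the paralogues, *Tbx3* was above *Tbx2* per kb in 1 of 5 EDL, 4 of 5 psoas and 3 of 3 soleus libraries. The median ratio of *Tbx3* to *Tbx2* was 0.737 in EDL, 1.84 in psoas and 2.51 in soleus.

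Within a muscle, libraries varied most for *Pitx1* (SD of log2 CPM around the muscle means, 0.839) and *Tbx4* (0.834) and least for *Meox2* (0.306) and *Lbx1* (0.319). After subtraction of the muscle means, the highest correlation between members over the 13 libraries was that of *Tbx3* and *Tbx4* (Pearson's r = 0.65), and the lowest were those of *Lbx1* with *Pitx1* (-0.58) and with *Tbx2* (-0.58). These points share library, depth and base composition, and the values are a description. Among 13917 other protein-coding genes, the one most like *Zic1* over the 13 libraries was *Riiad1* (r = 0.95), followed by *Micu3* and *Tmem11* (both 0.93), and with muscle means subtracted these fell to 0.44, 0.36 and 0.42. For *Tbx3* they were *Cubn* (0.93), *Fryl* (0.92) and *Gspt2* (0.91), for *Tbx4* *Purb* (0.94), *Kdm3b* (0.93) and *Celf2* (0.93), and for *Tbx2* *Kmt2b* (0.94), *Zfp300* (0.93) and *Setd1b* (0.93). For *Lbx1* they were *Pcgf5* (0.97), *Ttll7* (0.97) and *Mark3* (0.96), which stayed between 0.94 and 0.95 with muscle means subtracted. For *Meox2* they were *Prdm8* (0.92), *Cysltr1* (0.82) and *Impg2* (0.81), and for *Pitx1* *A530016L24Rik* (0.88), *Efhd1* (0.86) and *3300002I08Rik* (0.86).

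Marker genes of muscle fibres and of other cell types differed between the same muscles. The sum of 9 fibre markers was 1658833 to 3418649 normalized counts in EDL, 945054 to 1863315 in psoas and 909498 to 1308330 in soleus. Of these 9, 3 were called lower in psoas than in EDL (*Ckm*, *Myh4* and *Tnni2*), and in soleus against EDL 3 were lower (*Myh1*, *Myh4* and *Tnni2*) and 1 was higher (*Tnni1*). For 7 mesothelial markers, which mark the lining of body cavities, 6 were called higher in psoas than in EDL. Their summed normalized count was 41.8 to 122 in EDL, 269 to 1216 in psoas and 48.6 to 168 in soleus, and the defining marker *Upk3b* was at 0 in 4 of 5 EDL libraries. Of the 7 markers, 1 was called higher in soleus than in EDL, with a list median log2 fold change of 2.59. For 6 Schwann cell markers 4 were called higher in psoas, with sums of 1298 to 2590.5 in EDL, 4309 to 31339 in psoas and 2772 to 7142 in soleus, and *Sox10* was at 0 in 3 of 5 EDL libraries. Psoas replicate 1, which had the highest *Tbx3* and *Tbx2*, had the highest Schwann sum (31339) and the highest smooth muscle and pericyte sum (15386). Its tendon sum (6836) was the lowest of the psoas libraries. Psoas replicate 2 had the next highest Schwann sum (15223), the highest mesothelial sum (1216) and the lowest *Tbx3* (60.3) and *Tbx4* (27.2) of the psoas libraries. Of 5 tendon markers 3 were called lower in psoas than in EDL, with sums of 12325 to 18839 in EDL, 6836 to 15390 in psoas and 6520 to 8798 in soleus. Adipocyte sums were 9146 to 27996 in EDL, 14320 to 37122 in psoas and 53980 to 83251 in soleus, with 2 of 6 markers called higher in soleus than in EDL. Of 4 brown adipocyte markers and of 6 smooth muscle and pericyte markers, 1 each was called higher in psoas than in EDL, and the brown adipocyte sum reached 6136 in psoas replicate 5 beside at most 275 in EDL and soleus. Of the 7 fibroblast, 6 endothelial, 4 satellite cell and 5 macrophage markers tested, 0 were called in any contrast by edgeR or DESeq2, with at most 3 markers of a list at an unadjusted p under 0.05. The part of these cells in the differences of the members was not tested.

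**Figure D3:**
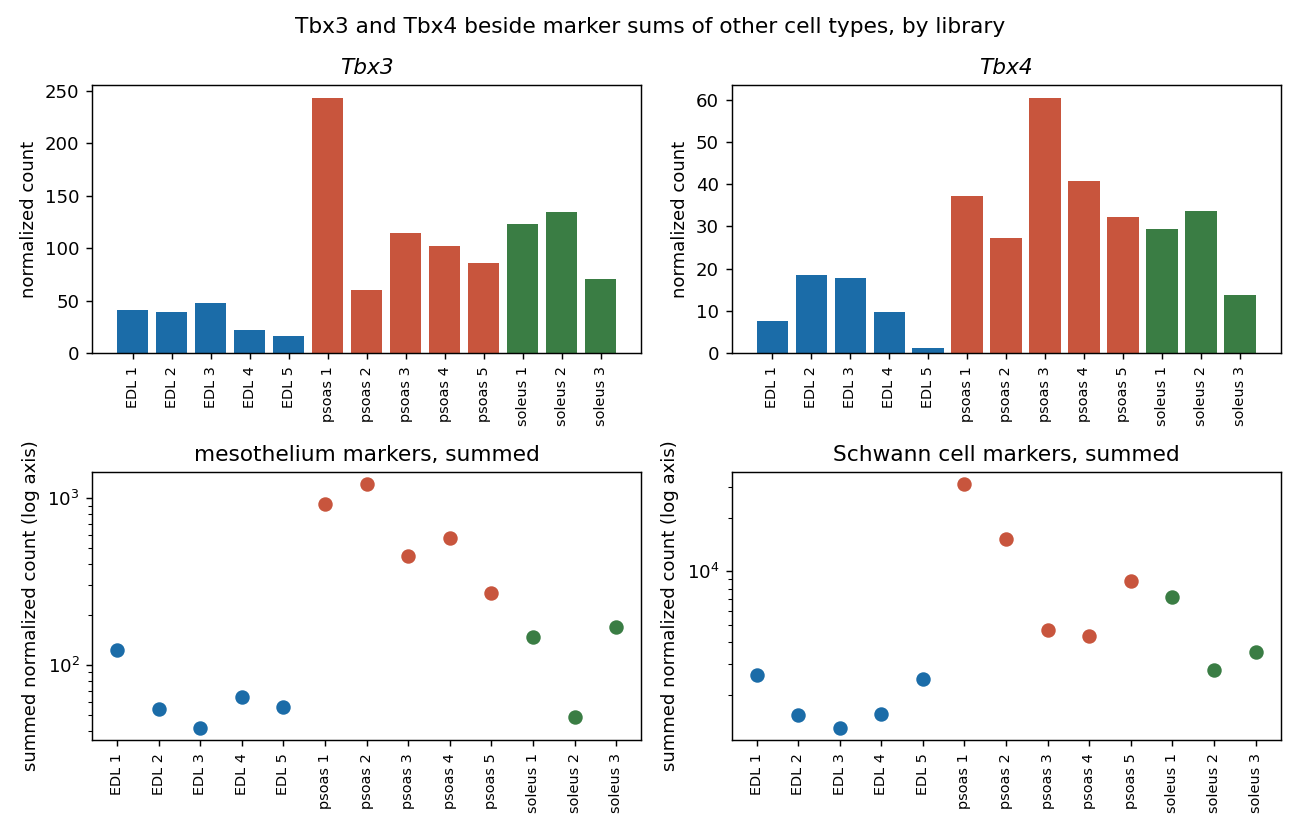
Upper panels show normalized counts of *Tbx3* and *Tbx4* in each library (bars from 0), and lower panels the summed normalized counts of 7 mesothelial and 6 Schwann cell markers in the same libraries (log axes). *Tbx3*, *Tbx4* and both sums are higher in every psoas library than in every EDL library, and psoas replicate 1 has the highest *Tbx3* (244) and Schwann sum (31339). Psoas replicate 2 has the next highest Schwann sum (15223) and the lowest *Tbx3* of the psoas libraries (60.3). The part of these cells in the levels of *Tbx3* and *Tbx4* was not tested.

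The other T-box genes were compared as a list of 13, of which 5 were tested. This list and those that follow were chosen with earlier results of these data known, so their values are a description. *Tbx15*, a T-box factor of fast glycolytic muscle fibres, was the most abundant of them per kb (means of 1369 in EDL, 524 in psoas and 569 in soleus). Its normalized counts were 2935, 6186, 8479, 3579.9 and 4465 in EDL, 1907, 1272, 2781, 2234 and 1617 in psoas and 2178, 2570.2 and 1652 in soleus. All EDL libraries lay above the others. *Tbx15* was lower in psoas than in EDL (log2 -1.39, SE 0.304, adjusted p = 0.0084 by edgeR's quasi-likelihood test), while soleus against EDL had an adjusted p of 0.073 in the same edgeR fit (log2 -1.26).

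*Tbx1*, a T-box gene of head muscle and pharynx, was also highest in EDL. Its normalized counts were 137, 389, 281, 175 and 203 in EDL, 75.5, 64.1, 121, 79.9 and 60.5 in psoas and 49.2, 57.8 and 46.4 in soleus, without overlap between EDL and either muscle. It was lower in psoas (log2 -1.57, SE 0.291, adjusted p = 0.0040 in edgeR) and in soleus (log2 -2.20, SE 0.365, adjusted p = 0.0060 in edgeR). *Tbx18*, a gene of mesenchyme and pericytes, was higher in soleus than in EDL (log2 1.30, SE 0.237, adjusted p = 0.0083 in edgeR), with 181, 123 and 119 normalized counts against 47.8 to 70.8. Thus 2 of 5 were called between psoas and EDL, both lower, beside 4.93% of all genes, and DESeq2 also called 2. Between soleus and EDL 2 of 5 were called, 1 in each direction, beside 0.978% of all genes, and DESeq2 called 3. Between soleus and psoas 0 were called by edgeR or DESeq2, with 1 at an unadjusted p under 0.05 in edgeR. Median log2 fold changes of the 5 genes were -0.03, -0.37 and -0.23 in psoas against EDL, soleus against EDL and soleus against psoas, beside 0.02, -0.03 and -0.03 over all genes. Leaving out 1 library moved adjusted p in edgeR past 0.01 for *Tbx1* in psoas without EDL replicate 3, psoas replicate 1 or psoas replicate 2 (0.010 to 0.012). For *Tbx1* in soleus it did so without EDL replicate 3 or any soleus library (0.014 to 0.038). It did so for *Tbx15* without EDL replicates 2, 3 or 5, psoas replicates 1, 2, 4 or 5, or soleus replicates 1 or 2 (0.011 to 0.024), and for *Tbx18* without 10 of the 13, the exceptions being EDL replicate 4 and psoas replicates 1 and 2 (0.010 to 0.069).

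Paralogues of the homeobox members gave 2 genes to describe, *Pitx3* and *Meox1*. Neither was called in the 3 contrasts by edgeR or DESeq2, and 0 had an unadjusted p under 0.05 in edgeR. In psoas against EDL the log2 fold change was 0.77 (95% interval -0.30 to 1.83) for *Pitx3* and -0.15 (-0.78 to 0.48) for *Meox1*, and in soleus against EDL 0.90 (-0.31 to 2.12) and -0.18 (-0.91 to 0.56).

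Regulators of limb patterning and limb connective tissue (Hox genes left out) formed a list of 26, of which 20 were tested. In psoas against EDL 4 were called, all higher, beside 4.93% of all genes. The median log2 fold change of the 20 was 0.84 beside 0.02 over all genes. In soleus against EDL 1 was called, higher, beside 0.978% of all genes, with a median of 0.28. In soleus against psoas 0 were called by edgeR or DESeq2, with a median of -0.44 and 7 at an unadjusted p under 0.05 in edgeR. *Meis1* and *Meis2*, homeobox genes of the proximal limb, were among the 4. *Meis1* had normalized counts of 63.4, 33.8, 57.7, 58.8 and 36.5 in EDL and 351, 162, 147, 122 and 126 in psoas, without overlap (log2 1.86, SE 0.311, adjusted p = 0.0024 in edgeR). *Meis2* had 9.79, 2.55, 17.9, 16.3 and 1.35 in EDL and 271, 86.5, 49.5, 41.7 and 45.6 in psoas, again without overlap (log2 3.44, SE 0.736, adjusted p = 0.0078 in edgeR). On its EDL libraries alone *Meis2* would not have passed the filter, since fewer than 3 reached 10 normalized counts. Psoas replicate 1 held the highest value of *Meis1* and of *Meis2*.

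*Gli3*, a mediator of hedgehog signalling in the limb bud, had 45.8 to 80.0 normalized counts in EDL and 114 to 162 in psoas (log2 1.15, SE 0.205, adjusted p = 0.0034 in edgeR). *En1*, a homeobox gene of ventral limb ectoderm and of somites, had 2.13, 5.10, 0, 6.53 and 2.71 in EDL, 21.4, 12.3, 17.4, 24.3 and 19.9 in psoas and 33.9, 40.0 and 13.8 in soleus. Every psoas and soleus library was above every EDL library for *En1*. No EDL library reached the filter limit of 10 normalized counts, so *En1* was tested only because its psoas and soleus libraries passed it. It was higher in psoas (log2 2.42, SE 0.517, adjusted p = 0.0078 in edgeR) and in soleus (log2 3.07, SE 0.558, adjusted p = 0.0082 in edgeR). With replicate numbers as a block its psoas call was lost (log2 2.50, adjusted p = 0.011 in edgeR). Each *En1* call held for only 2 of the 13 libraries left out, and was lost for the others with adjusted p in edgeR up to 0.020 and 0.046, the 2 being EDL replicate 4 and soleus replicate 3 for psoas, and EDL replicate 4 and psoas replicate 1 for soleus. *Meis1* and *Gli3* were called whichever library was left out, and *Meis2* not without EDL replicates 1, 2, 3 or 5, psoas replicates 1 or 2, or soleus replicate 1 (adjusted p from 0.012 to 0.019 in edgeR). *Isl1*, the gene that starts hindlimb growth upstream of *Tbx4*, is named after its values were seen and did not pass the filter. It was at 0 in 4 of 5 EDL libraries and at 1.28 normalized counts in the other, and at 2.49 to 16.0 in psoas and 1.72 to 8.57 in soleus.

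Regulators of migrating muscle precursors and of trunk somites formed a list of 18, of which 13 were tested. Only *Sim1*, a gene of the lateral somite, was called, higher in psoas than in EDL, which is 1 of 13 beside 4.93% of all genes. Its normalized counts were 40.0, 40.8, 21.9, 16.3 and 13.5 in EDL, 111, 76.9, 156, 74.7 and 100.3 in psoas and 115, 118 and 48.1 in soleus. EDL did not overlap with either muscle. The log2 fold change was 1.92 for psoas (SE 0.371, adjusted p = 0.0047 in edgeR) and 1.79 for soleus (SE 0.407, adjusted p = 0.025 in edgeR), which was called by DESeq2 only. The psoas call was lost without EDL replicates 3 or 5 or psoas replicates 1 or 3 (adjusted p from 0.010 to 0.015 in edgeR). *Met*, the receptor that lets precursors leave the somite, differed by log2 0.01 (95% interval -0.42 to 0.43) between psoas and EDL. The median log2 fold change of the 13 genes was 0.21, 0.18 and -0.16 in psoas against EDL, soleus against EDL and soleus against psoas, beside 0.02, -0.03 and -0.03 over all genes.

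**Figure D4:**
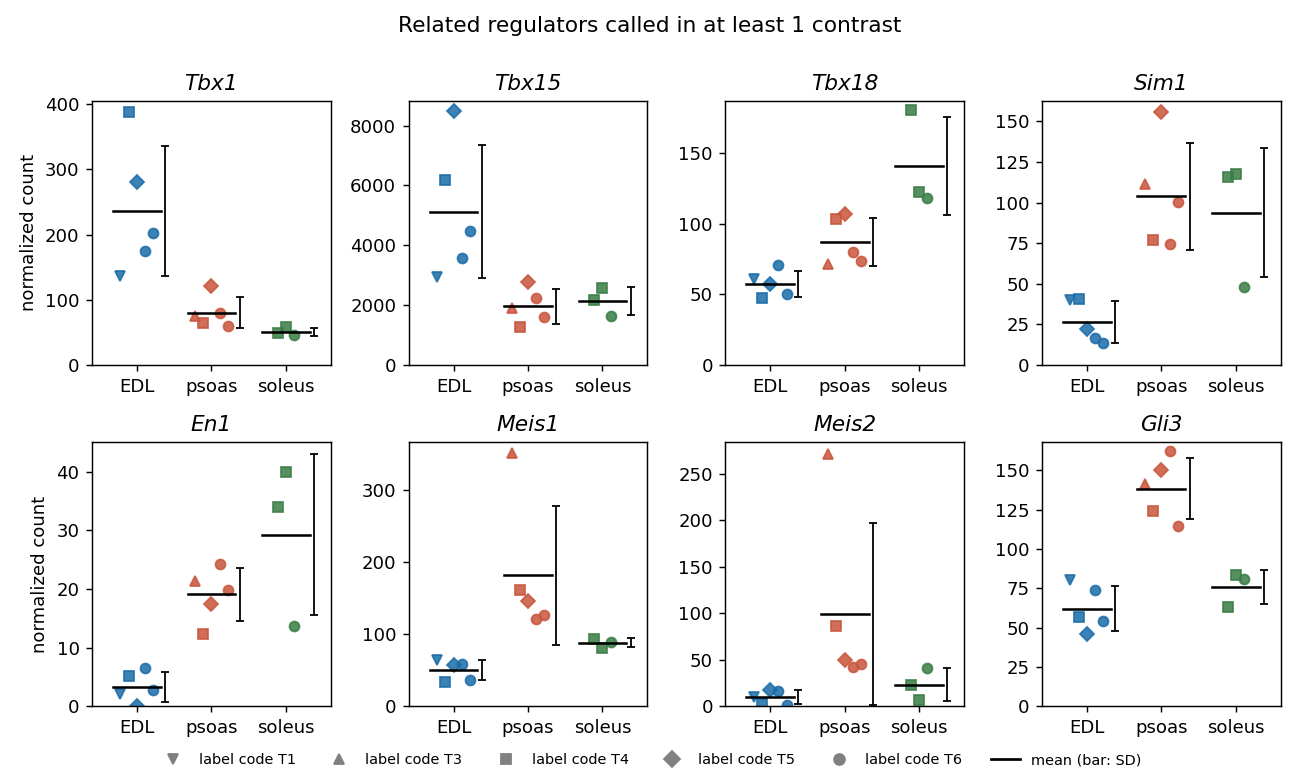
Normalized counts (linear axes from 0) of 8 related regulators called in at least 1 contrast, by muscle and library, with shapes for the condition code, a line at the mean and a bar of 1 SD. *Tbx1* and *Tbx15* are highest in EDL, while *Sim1*, *En1*, *Meis1* and *Gli3* have every psoas library above every EDL library.

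Genes known as direct targets of the T-box members or of *Meox2* formed a list of 9, of which 6 were tested. In psoas against EDL 2 were called, both higher, beside 4.93% of all genes. *Cdkn1a*, an inhibitor of the cell cycle that *Meox2* activates and *Tbx2* and *Tbx3* repress, had 146, 329.8, 167, 239.6 and 164 normalized counts in EDL and 923, 482, 519, 457 and 536 in psoas, without overlap (log2 1.47, SE 0.280, adjusted p = 0.0043 in edgeR). It was lost without EDL replicates 3 or 5 or psoas replicate 1 (adjusted p from 0.010 to 0.015 in edgeR). *Ndrg1*, a stress-responsive gene that *Tbx2* represses, was also higher in psoas (log2 1.50, SE 0.304, adjusted p = 0.0060 in edgeR), although psoas replicate 3, at 267, fell among the EDL libraries (153 to 298). This call was lost without EDL replicates 3, 4 or 5 or psoas replicates 1, 2 or 5 (adjusted p from 0.011 to 0.020 in edgeR). *Fgf10*, the limb growth factor downstream of *Tbx4* and *Tbx5*, had log2 fold changes of 1.68 for psoas (SE 0.537, adjusted p = 0.043 in edgeR) and 2.22 for soleus (SE 0.590, adjusted p = 0.053 in edgeR) and was not called. The median log2 fold changes of the 6 genes were 0.95, 0.99 and 0.16 in the 3 contrasts in the order above, and 0 were called in the soleus contrasts by edgeR, where 3 (against EDL) and 2 (against psoas) had an unadjusted p under 0.05 and DESeq2 called 0 and 1.

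Within 100 kb of the starts of the members the annotation holds 33 genes that are not members, of which 1 was tested. This was *Gm37477*, 15.592 kb from *Zic1*. It had a log2 fold change of -0.41 in psoas against EDL (adjusted p = 0.65 in edgeR) and -0.90 in soleus against EDL (adjusted p = 0.60 in edgeR), so no neighbour was called.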

How the data were processed

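Whole muscles of *mdm* mice were profiled by stranded total RNA sequencing. The authors trimmed part of the reads, aligned them to GRCm38 with TopHat and deposited the counts per gene. The authors also deposited a normalized signal, in which DESeq2 size factors scale the counts of each library. These normalized counts are the levels given here. Groups came from the sample titles. Of 17924 genes, 17833 matched GENCODE M21, which gave symbols, positions and exon lengths. The members and lists were chosen with earlier results of these data known.

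Differences were computed from the counts with edgeR 4.0.16 (quasi-likelihood, TMM) in R 4.3.3, with muscle as the only factor in 1 fit of 13 libraries, for genes that reached 10 normalized counts in 3 or more libraries. Standard errors are log2 fold changes over the root of F, and intervals cover 95%. The study had fitted the sequencing run, which the labels do not name. Log2 CPM has a prior count of 2. Named genes are all members, the 3 genes most correlated with each, genes called from each list, and list genes with a muscle mean of at least 100, some of which are not reported here. Tables and figures were made with pandas 2.3.3, scipy 1.17.1 and matplotlib 3.10.9. Alternatives were DESeq2 1.42.0, other size factors, no filter, the 2 muscles alone, condition code or replicate number as a block, and leaving out each library. The code was tested on simulated data.

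Same-numbered EDL and psoas libraries deviated together from their muscle means (correlations of 0.407, 0.370, 0.316, 0.289 and 0.371 for replicates 1 to 5), and the replicate block took them as pairs. Age and condition code are the same in both muscles for replicates 2 to 5 but not for replicate 1. Replicate 1 came from mice of 38 days (EDL) and 29 days (psoas), hence not from 1 mouse, yet it had the highest correlation. The correlations therefore do not show that same-numbered libraries share a mouse. Within muscles, 23 library pairs were compared and no duplicate was found (lowest chi-square per degree of freedom 57.0).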

Additional observations from a re-analysis of the deposited data

Results flagged for a closer look

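Among 34 groups of 5 libraries (EDL or psoas) of the members and related genes, 3 had a library whose gap to the next passed the limit of Dixon's test, all in related genes and all with psoas replicate 1 highest. No group of a member passed it, and the 3 soleus libraries were too few to look at. Below that limit, psoas replicate 1 was also the highest psoas library for the members *Tbx3* (244, next 114) and *Tbx2* (61.0, next 36.8). *Cdkn1a* was at 923 normalized counts there and at 536 in the next library, a gap of 0.830 of the range of the group. *Meis1* was at 351 and next at 162 (0.825 of the range), and *Meis2* at 271 and next at 86.5 (0.804). At the 95% limit of that test, chance flags about 5% of groups. The same library had the youngest mouse (29 days) and the condition code T3, which no other library used here carries. It also had the highest Schwann cell marker sum (31339), the highest smooth muscle and pericyte sum (15386) and the lowest tendon sum of the psoas libraries (6836). The part of these in the 3 values was not tested.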

How the results depend on the processing

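Of 237 alternative values for called related genes, 157 kept direction and call and 80 kept only the direction. Of 406 alternative values for members, 403 moved by less than the replicate SD and 3 by more, and 6 changed sign, all in soleus against psoas (*Tbx3*, from -0.14 to between 0.08 and 0.29, and *Zic1*, from 0.12 to between -0.62 and -0.06). The 3 genes most like a member by Pearson correlation were also the top 3 by Spearman correlation for 2 genes of *Tbx3*, 1 of *Pitx1* and 0 of the other members. Members called in psoas against EDL (2) numbered 1 with the 2 muscles alone, 3 with DESeq2 and 1 to 2 with 1 library left out. In soleus against EDL (1) they numbered 0 with the condition code as a block, 2 with DESeq2, and 0 to 1 with 1 library left out. In soleus against psoas they numbered 0 throughout. Genes called in psoas against EDL (841) numbered 557 with the 2 muscles alone, 1267 with the replicate block, 1586 with DESeq2, and 317 to 802 with 1 library left out, lowest without EDL replicate 3. In soleus against EDL (167) they numbered 86 with the condition code as a block, 633 with DESeq2 and 19 to 182 with 1 library left out. In soleus against psoas (13) they numbered 8 with the 2 muscles alone, 6 with the condition code as a block, 171 with DESeq2 and 3 to 21 with 1 library left out. The fits without 1 library or with 2 muscles use fewer samples, and otherwise the cause was not tested. Among related genes, adjusted p in edgeR rose past 0.01 with the condition code as a block for *Tbx18* (0.025), *En1* in psoas (0.019) and soleus (0.045) and *Meis2* (0.017), and with the 2 muscles alone for these (0.022, 0.013, 0.027 and 0.011), *Tbx1* in soleus (0.011), *Tbx15* (0.015) and *Ndrg1* (0.012). Apart from *En1*, the replicate block removed no named call in psoas against EDL. Depth limits *Zic1* in psoas and soleus, *Pitx1* in all muscles and *Tbx4* in EDL. Libraries held as few as 1 count for *Zic1* in psoas and for *Pitx1* and *Tbx4* in EDL.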
